A study of Arabidopsis thaliana with 4 samples.

Results

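The genotype by ABA interaction asks, for each gene, whether the response to the hormone abscisic acid (ABA) differed between a lincRNA11195 mutant and wild type Arabidopsis thaliana seedlings. It is the log2 fold change between ABA and untreated libraries in the mutant minus the same log2 fold change in wild type. All 12 libraries of the series entered it, and of 33610 gene IDs in the count table, 21322 had enough counts to be tested. A positive value means that the ABA response was more positive, or less negative, in the mutant. A negative value means the opposite.

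The libraries came from 4 groups of 3 biological replicates. These were mutant seedlings after 12 h of ABA, untreated mutant seedlings, wild type seedlings after 12 h of ABA and untreated wild type seedlings. All were 2-week-old Col-0 seedlings grown on MS-based medium, the mutant background being given as the same ecotype, and RNA was sequenced with a stranded mRNA kit. The labels name 1 mutant line only, so effects of the mutation and of anything else particular to that line cannot be told apart, and the transcript of lincRNA11195 itself was not analysed here. Neither the ABA dose nor whether untreated seedlings were sampled at the same hour as treated ones is given in the sources used here.

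ABA accumulates in plants short of water. It binds PYR/PYL receptors, which then hold back clade A PP2C phosphatases, and SnRK2 kinases freed from those phosphatases switch on a transcriptional programme of protective proteins. The same hormone lowers transcripts of the photosynthetic apparatus and of growth, and its level is limited by CYP707A enzymes that break it down. LincRNAs are long transcripts from between genes that do not encode proteins.

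Of the 21322 genes tested, 384 (1.80%) had an interaction with an adjusted p under 0.05 in edgeR's quasi-likelihood test with Benjamini-Hochberg adjustment. The interaction was higher in 354 of them (1.66% of genes tested) and lower in 30 (0.141%). An unadjusted p under 0.05 was reached by 1983 genes in the higher direction and 626 in the lower. The median over all genes tested was -0.01 on the log2 scale, with the middle of the distribution between -0.24 and 0.30 (lower and upper quartiles). Groups of 3 replicates limit what the test can find, and in data simulated for the interaction 85% of 4-fold changes and 13% of 2-fold changes were called. Those changes were placed only in genes above a minimum count, in libraries drawn independently of each other, so the rates may differ in the real libraries.

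The 354 genes called higher were, in the main, genes that fell with ABA in wild type and had no common direction in the mutant. Their median ABA response was 0.03 in the mutant (log2, quartiles -0.40 and 0.43) and -1.55 in wild type (quartiles -2.23 and -0.94). Over all genes tested the quartiles were -0.47 and 0.40 in the mutant and -0.62 and 0.48 in wild type. Set between the genotypes, the 354 genes had a median of -0.05 under ABA (quartiles -0.23 and 0.15) and -1.60 untreated (quartiles -2.12 and -1.14), mutant minus wild type. For the 30 genes called lower, the median ABA response was -0.86 in the mutant and 0.79 in wild type, and the median difference between mutant and wild type was 0.14 under ABA and 1.43 untreated. These responses share libraries with the interaction and describe what it is made of. ABA responses with an adjusted p under 0.05 were common in all genes tested, at 42.5% in the mutant (21.5% higher and 21.1% lower) and 53.4% in wild type (25.2% higher and 28.2% lower). Of the 354 genes, 68 fell and 77 rose with ABA in the mutant by that test, and 319 fell and 8 rose in wild type. Of the 30, 19 fell and 6 rose in the mutant, and 1 fell and 19 rose in wild type.

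**Figure D1:**
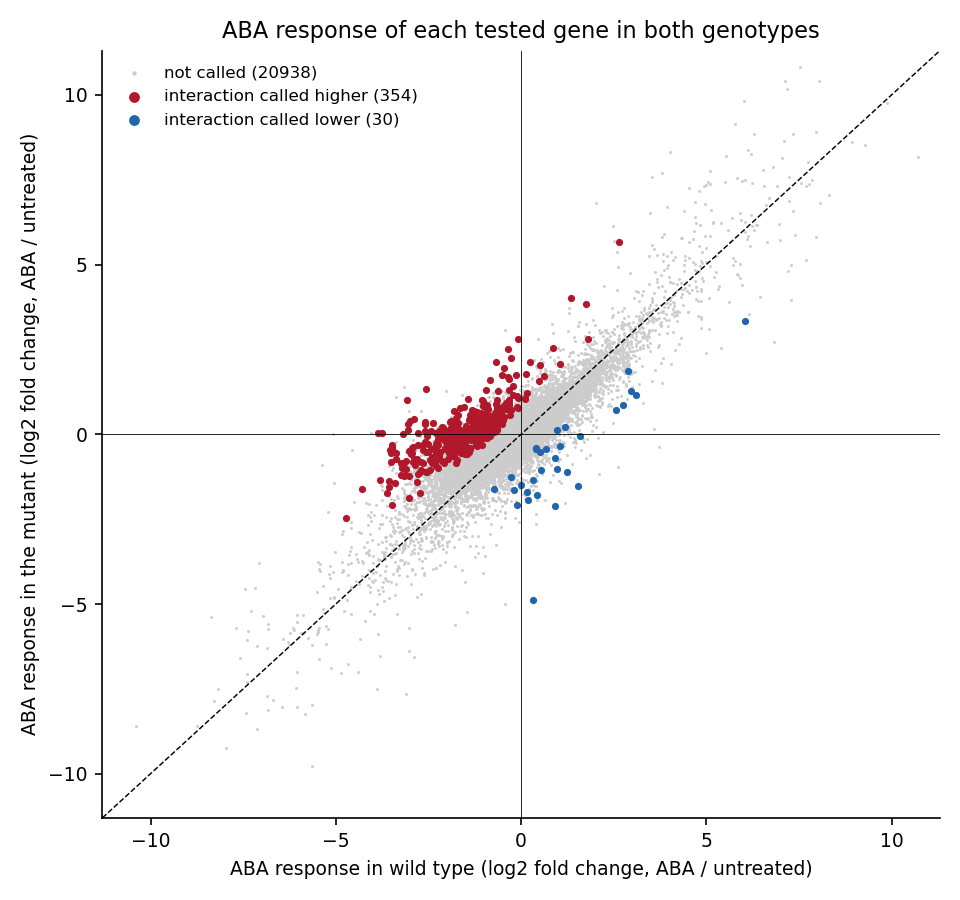
ABA response of the 21322 tested genes in the mutant (vertical axis, log2 fold change) and in wild type (horizontal axis, log2 fold change), 1 point a gene. Genes called higher in the interaction (354, red) lie above the dashed line of equal response, mostly left of 0 in wild type and on both sides of 0 in the mutant, and genes called lower (30, blue) lie below it.

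For each called gene, the group whose mean was farthest from the median of the other 3 groups was recorded (log2 of CPM + 0.5). Among the 354 genes called higher, it was untreated wild type, lying above the others, in 286 (80.8%), against 24.3% of all genes tested. In 50 it was the untreated mutant, lying below (14.1%, against 10.6% of all genes tested). In 14 it was ABA-treated wild type, lying below (3.95% against 7.21%), and in 4 the ABA-treated mutant, lying above (1.13% against 7.05%). Among the 30 genes called lower, the untreated mutant lay above in 14 (46.7%, against 13.5% of all genes tested). Untreated wild type lay below in 11 (36.7% against 22.3%). The called genes were selected on these same 4 group means, and the direction of a call limits which patterns can occur. The shares therefore describe the calls and support nothing beyond them.

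The untreated wild type libraries stood apart in measures of the whole library, which are not independent of abundant single genes. The 100 most abundant genes took 9.4% to 10.8% of counts in mutant ABA libraries, 11.1% to 14.1% in mutant untreated libraries, 10.7% to 11.6% in wild type ABA libraries and 17.3% to 18% in wild type untreated libraries. Counts per library ranged from 14691544 to 22477294, both in the untreated mutant, and the scaling factors were 0.8575 to 0.9122 in untreated wild type and 0.9736 to 1.1194 elsewhere. Abundant photosynthesis genes enter these measures. Summed levels of 5 genes for the Rubisco small subunit and activase were 39240 to 41530 CPM in untreated wild type and 4645 to 19660 elsewhere. For 26 nuclear photosystem and electron transport genes they were 21310 to 27310 and 4139 to 9350 CPM. Their part in the library measures was not tested. The column names of the untreated wild type libraries carry a "12" that the other names lack, with no meaning given. The part of these differences in the interaction was not tested.

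Called genes were unevenly spread over gene length and base composition. Median exonic length was 1100 bases in genes called higher and 1841 in genes called lower, against 1761 in all genes tested, and median GC content was 42.71% and 39.11% against 41.07%. The interaction was called for 5.28% of the shortest 10% of genes and 0.095% of the longest 10%, and for 5.7% of the 10% with the highest GC content against 1.24% of the 10% with the lowest. The median interaction shifted too, from 0.25 in the shortest 10% to -0.25 in the longest. It was 0.36 in the 10% with the highest GC content and -0.08 in the lowest. Medians, signs and shares of lists and families below were not matched to all genes for either property. With a per-library trend over GC content and length removed, 228 genes were called higher and 34 lower, including 206 of the 354 and 21 of the 30. The count of genes called higher also moved by over 1.5 times when some libraries were left out, to 117 without mutant untreated replicate 2, 150 without wild type ABA replicate 2, 181 and 202 without wild type untreated replicates 2 and 1, 199 without mutant ABA replicate 3 and 218 without mutant untreated replicate 1. That of genes called lower became 12 without mutant untreated replicate 2, 14 without wild type untreated replicate 1, 15 without wild type ABA replicate 2 or wild type untreated replicate 2, 16 without wild type ABA replicate 1, and 19, 17 and 18 without mutant ABA replicate 1, mutant ABA replicate 3 and mutant untreated replicate 1. Of the individual calls, 112 of the 354 and 10 of the 30 were kept in every fit that left out 1 library.

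**Figure D2:**
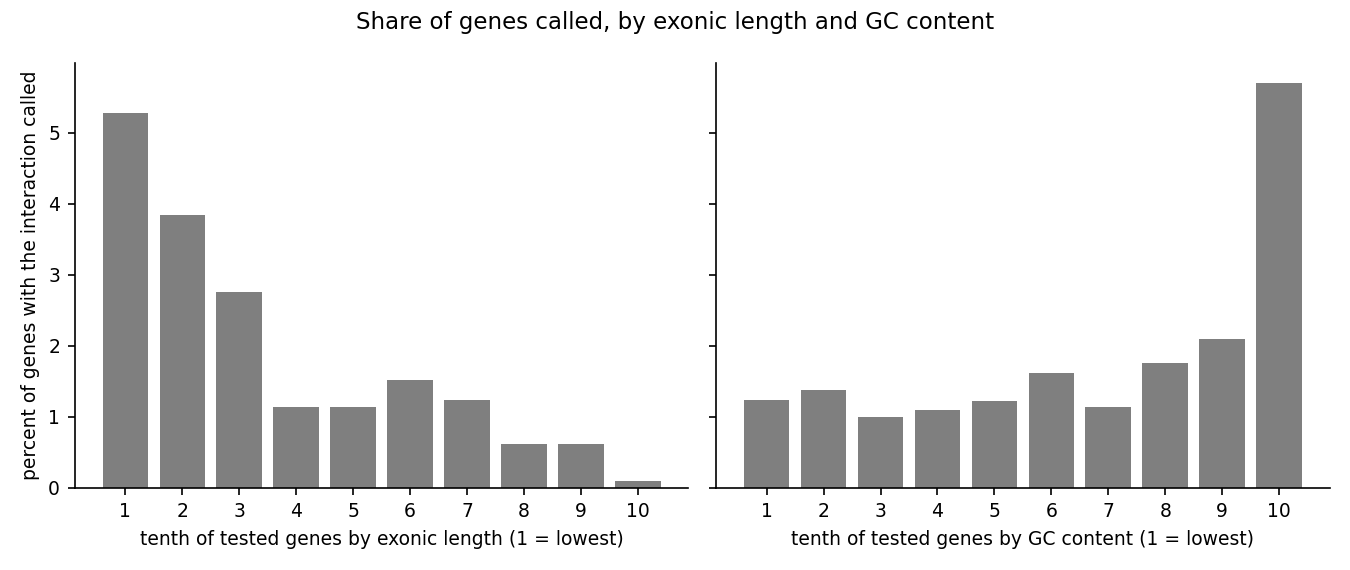
Percent of tested genes with a called interaction (vertical axis) in 10 equal classes of genes by exonic length and by GC content (horizontal axes, 1 the lowest class). The share is 5.28% in the class of the shortest genes and 5.7% in that of the highest GC content, against 1.80% of all genes tested.

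Nuclear genes for the photosynthetic apparatus held the highest shares of called members among the 25 gene lists. Of 14 photosystem II antenna genes, which encode the chlorophyll-binding proteins that pass light energy to photosystem II, 6 were called higher and 0 lower, against 1.66% of all genes tested called higher, all 14 values were above 0 and the median interaction was 1.96. Of 26 nuclear genes for photosystem subunits and electron carriers, 10 were called higher and 0 lower, against the same 1.66%, all 26 were above 0 and the median was 1.36. The median ABA response of the antenna genes was -0.34 in the mutant and -2.58 in wild type, and that of the subunit genes -0.34 and -1.58. With the GC and length trend removed the antenna list kept 6 calls with a median of 1.59, and the subunit list had 7 with a median of 1.03.

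LHCB1.5, which encodes a major light-harvesting protein of photosystem II, had the highest value of the antenna list. It stood at 16.6, 12.3 and 12.1 CPM in mutant ABA libraries, 5.35, 4.34 and 6.62 in mutant untreated libraries, 48.5, 34.7 and 19.8 in wild type ABA libraries and 197, 220 and 187 in wild type untreated libraries. The 4 groups did not overlap, and the untreated mutant was the lowest of them and untreated wild type the highest. LHCB1.5 rose with ABA by 1.33 ± 0.28 in the mutant (log2 ± SE, adjusted p = 0.0024) and changed by -2.55 ± 0.27 in wild type (adjusted p = 9.53e-06), which gave an interaction of 3.88 ± 0.39 (edgeR quasi-likelihood test, adjusted p = 0.00105). With the GC and length trend removed the interaction was 2.51 (adjusted p = 0.00273). LHCB1 genes are closely alike, so the split of reads between them is uncertain. LHCB1.4, next to it in locus number, had an interaction of 3.49 and was not called (adjusted p = 0.185, edgeR).

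LHCB6 encodes a minor antenna protein that links the large light-harvesting complexes to the photosystem II core. It measured 19, 16.4 and 32.7 CPM in mutant ABA libraries, 22.4, 27.6 and 34.4 in mutant untreated libraries, 33.1, 26.9 and 32.5 in wild type ABA libraries and 323, 460 and 243 in wild type untreated libraries. Only the untreated wild type libraries were high, and the other 3 groups overlapped. The ABA response was -0.31 ± 0.28 in the mutant (adjusted p = 0.387) and -3.47 ± 0.30 in wild type (adjusted p = 1.79e-06), and the interaction was 3.16 ± 0.40 (adjusted p = 0.00236, edgeR), or 2.08 with the GC and length trend removed (adjusted p = 0.0152). LHCB4.1, another minor antenna gene, followed the same order of groups, with 96.6, 63.6 and 114 CPM in mutant ABA libraries, 80, 114 and 157 in mutant untreated libraries, 154, 117 and 112 in wild type ABA libraries and 944, 1109 and 822 in wild type untreated libraries. Its interaction was 2.55 ± 0.37 (adjusted p = 0.00437, edgeR).

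The other called antenna genes were LHCB1.2 at 2.82 ± 0.49, LHCB1.3 at 2.46 ± 0.52 and LHCB2.1 at 1.74 ± 0.35, with adjusted p of 0.0111, 0.0312 and 0.0252 in edgeR. The call of LHCB1.2 was lost without mutant untreated replicate 2. Those of LHCB1.3 and LHCB2.1 were each kept in 5 of the 12 fits that left out 1 library, both without mutant ABA replicate 2, mutant untreated replicate 3, wild type ABA replicate 1 or wild type untreated replicate 3, and in addition LHCB1.3 without mutant untreated replicate 1 and LHCB2.1 without mutant ABA replicate 1. The lowest values of the list were 0.31 for LHCB5 and 0.66 for LHCB3, neither called. Leaving out mutant untreated replicate 2 left 3 called members in the list, and leaving out mutant untreated replicate 3 gave 10.

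In the subunit list, PSBTN, a small nuclear-encoded photosystem II subunit, had the highest interaction. Its levels were 31.3, 27.6 and 40.4 CPM in mutant ABA libraries, 42.8, 36.1 and 54.4 in mutant untreated libraries, 45.1, 37.7 and 39.2 in wild type ABA libraries and 405, 628 and 334 in wild type untreated libraries. Untreated wild type lay far above the other groups, which overlapped. The ABA response was -0.43 ± 0.24 in the mutant (adjusted p = 0.165) and -3.49 ± 0.26 in wild type (adjusted p = 5.11e-07), and the interaction was 3.06 ± 0.34 (adjusted p = 0.00119, edgeR).

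PSAL, a photosystem I subunit at which antenna complexes dock, had 156, 129 and 207 CPM in mutant ABA libraries, 133, 150 and 224 in mutant untreated libraries, 217, 192 and 180 in wild type ABA libraries and 968, 1410 and 1014 in wild type untreated libraries. Untreated wild type was again the only high group. Its interaction was 2.49 ± 0.34 (adjusted p = 0.00337, edgeR), from an ABA response of -0.04 in the mutant and -2.53 in wild type.

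PSBW and PSBY, small photosystem II subunits, showed the same contrast with less difference between groups. PSBW had 247, 263 and 254 CPM in mutant ABA libraries, 225, 164 and 179 in mutant untreated libraries, 305, 250 and 256 in wild type ABA libraries and 652, 920 and 574 in wild type untreated libraries. The untreated mutant was its lowest group and untreated wild type its highest, and the interaction was 1.83 ± 0.27 (adjusted p = 0.00437, edgeR). PSBY had an interaction of 1.71 ± 0.25 (adjusted p = 0.00437, edgeR) and fell with ABA in both genotypes, with log2 responses of -0.75 in the mutant and -2.46 in wild type.

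The remaining called subunits were of photosystem I (PSAD-2, PSAE-1, PSAE-2, PSAG and PSAH-1) and of the oxygen-evolving complex of photosystem II (PSBQ-1), with interactions between 0.92 for PSAG and 2.3 for PSAE-2. With the GC and length trend removed the calls of PSAG (0.48, adjusted p = 0.275), PSAD-2 (0.53, adjusted p = 0.454) and PSBQ-1 (0.77, adjusted p = 0.0847) were lost, and PSAE-1 and PSAE-2 had interactions of 1.02 and 1.25. Among the fits that left out 1 library, PSAG was kept without mutant ABA replicate 2 or mutant untreated replicate 3, and PSAD-2 without mutant untreated replicate 3, wild type ABA replicate 3 or wild type untreated replicate 2. PSAE-2 and PSAH-1 were kept without mutant ABA replicate 2, mutant untreated replicate 3, wild type ABA replicate 1 or wild type untreated replicate 3. PSBQ-1 was lost without mutant untreated replicates 1 or 2, wild type ABA replicates 1 or 2 or wild type untreated replicates 1 or 2, and PSAE-1 without mutant untreated replicate 2 or wild type ABA replicate 2. The lowest values of the list were 0.08 for PSAN and 0.37 for PSAF. The count of 10 called subunits became 6 without mutant ABA replicate 1, mutant ABA replicate 3 or wild type untreated replicate 2, 5 without mutant untreated replicate 1 or wild type untreated replicate 1, and 4 without mutant untreated replicate 2 or wild type ABA replicate 2.

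**Figure D3:**
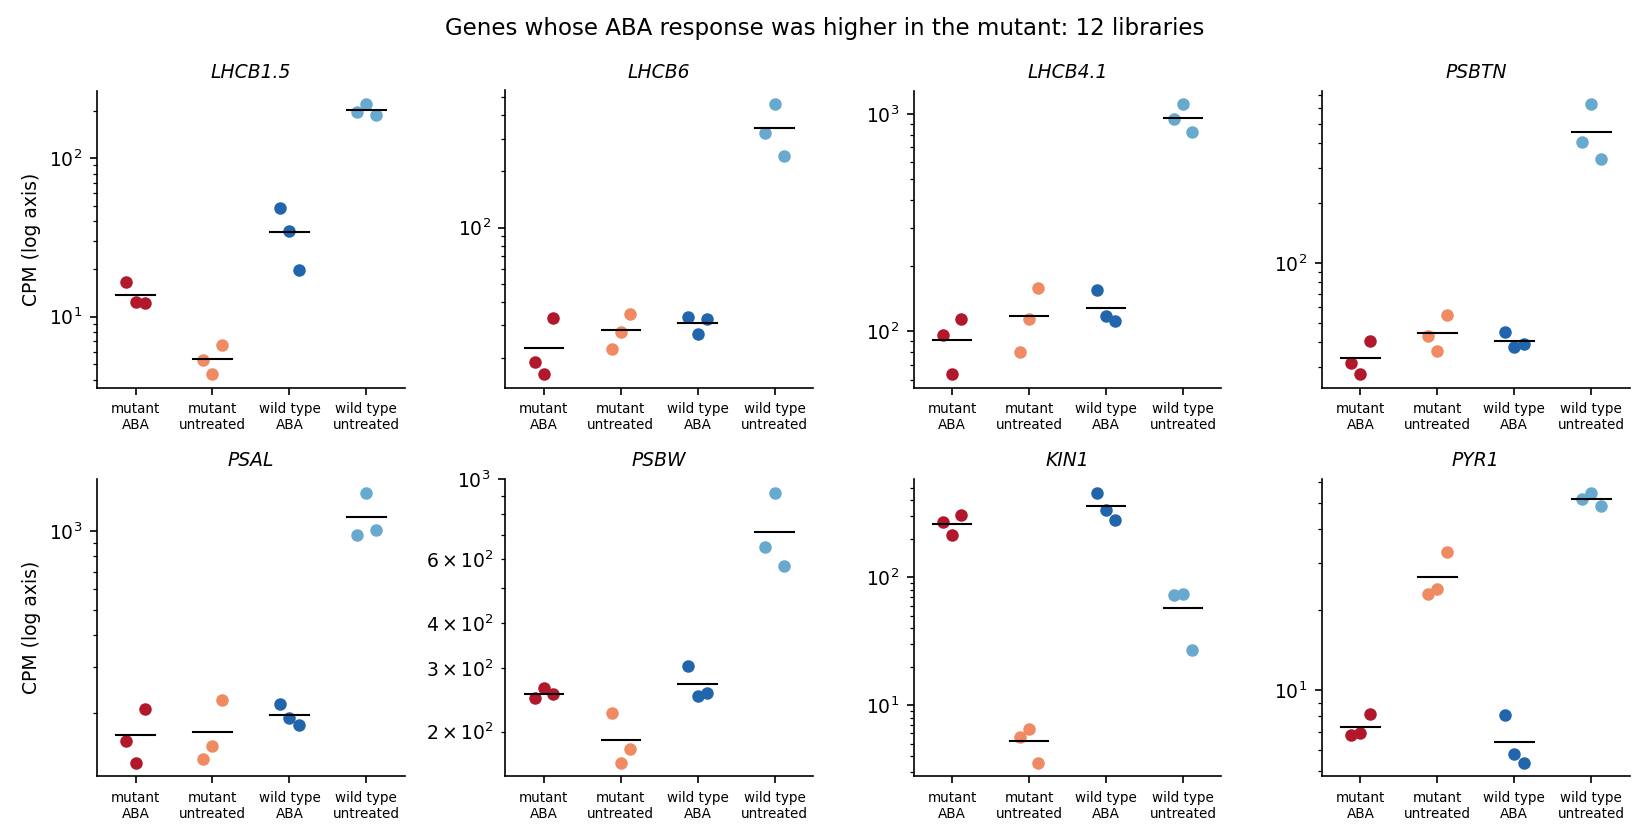
Levels (CPM, log axis) of 8 genes called higher in the interaction in each of the 12 libraries, with 1 point a library and a line at the mean of each group of 3. In LHCB6, LHCB4.1, PSBTN, PSAL and PSBW untreated wild type is the high group, in LHCB1.5 the 4 groups are separate, and KIN1 is lowest in the untreated mutant.

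The lists next to these in function had values above 0 but few or no calls. All 6 photosystem I antenna genes were above 0 with a median of 0.91 and none was called, while 4 had an unadjusted p under 0.05, and DESeq2 called 2. LHCA2 came nearest at 1.69 ± 0.40 (adjusted p = 0.0555, edgeR), and with the GC and length trend removed it was called (adjusted p = 0.036) while the list median became 0.41. All 5 genes for the Rubisco small subunit and Rubisco activase, the carbon-fixing enzyme and its helper, lay between 0.75 and 1.15, with no call by any of the 3 tools run and 3 unadjusted p under 0.05. RBCS1A, with the lowest adjusted p of them, had 1.15 ± 0.39 (adjusted p = 0.193, edgeR).

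Chlorophyll synthesis genes gave 1 call (5.88%), against 1.66% of all genes tested called higher. Of 17 tested, 11 were above 0, the median was 0.11 and CHLM alone was called, at 0.96 ± 0.19 (adjusted p = 0.0247, edgeR). CHLM encodes the methyltransferase of the magnesium branch. Its call was kept in 3 of the 12 fits that left out 1 library, those without mutant ABA replicate 2, mutant untreated replicate 3 or wild type untreated replicate 3, and was lost with the GC and length trend removed (adjusted p = 0.0802).

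Within the ABA pathway, the core signalling lists gave 1 call. Of 10 tested PYR/PYL receptors, all 10 were above 0 with a median of 0.51. PYR1 was called higher, which is 10% of them against 1.66% of all genes tested. PYR1 had 6.81, 6.92 and 8.19 CPM in mutant ABA libraries, 22.9, 23.9 and 33 in mutant untreated libraries, 8.09, 5.78 and 5.38 in wild type ABA libraries and 51.9, 54.9 and 49 in wild type untreated libraries. It fell with ABA in both genotypes, with log2 responses of -1.87 ± 0.18 in the mutant and -3.02 ± 0.19 in wild type (± SE, adjusted p = 6.67e-06 and 1.62e-07), and the untreated mutant lay between the ABA-treated groups and untreated wild type. The interaction was 1.15 ± 0.25 (adjusted p = 0.0381, edgeR). The call was kept without mutant untreated replicate 3 or wild type ABA replicate 1, and lost without any other single library and with the GC and length trend removed (adjusted p = 0.0788).

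PYL4, a receptor that ABA lowers, measured 2.2, 2.39 and 1.49 CPM in mutant ABA libraries, 41.4, 45 and 50.3 in mutant untreated libraries, 2.02, 2.49 and 1.38 in wild type ABA libraries and 89.6, 62 and 88 in wild type untreated libraries. Its interaction was 0.87 ± 0.32 and was not called (adjusted p = 0.265, edgeR). Of 8 tested clade A phosphatases 3 were above 0 with a median of -0.12, and of 10 tested SnRK2 kinases 0 were, with a median of -0.19. ABI1, a clade A phosphatase, had an ABA response of 3.01 in the mutant and 3.06 in wild type and an interaction of -0.04 ± 0.28 (adjusted p = 0.969, edgeR). HAI1, another of them, had an interaction of 1.47 ± 0.76 (adjusted p = 0.483, edgeR), with 55.1, 42.6 and 53.7 CPM in mutant ABA libraries, 0.182, 0.763 and 0.533 in mutant untreated libraries, 129, 80.1 and 60.7 in wild type ABA libraries and 5.19, 1.29 and 1.14 in wild type untreated libraries. SnRK2 interactions lay between -0.39 and -0.07 with none called, and neither list had a member with an unadjusted p under 0.05.

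Genes that limit the hormone or act late in its signalling gave 2 calls in the lower direction. These were 1 of 11 tested synthesis and breakdown genes and 1 of 12 ABA transcription factors, against 0.141% of all genes tested called lower. CYP707A3 encodes an ABA 8'-hydroxylase, the enzyme type that starts ABA breakdown. It had 31, 39.4 and 28.1 CPM in mutant ABA libraries, 19.7, 17.1 and 16.8 in mutant untreated libraries, 17.55, 19.6 and 16 in wild type ABA libraries and 2.62, 2.46 and 2.76 in wild type untreated libraries. Untreated wild type was the low group and ABA-treated mutant libraries the high ones, and mutant untreated and wild type ABA libraries overlapped. CYP707A3 rose with ABA by 0.88 ± 0.15 in the mutant and 2.75 ± 0.17 in wild type, and the interaction was -1.88 ± 0.22 (adjusted p = 0.00172, edgeR). It was kept in all 21 alternative fits.

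CYP707A2, of the same family, came near the threshold at -0.79 ± 0.19 (adjusted p = 0.0557, edgeR). It measured 61.5, 59.97 and 65.7 CPM in mutant ABA libraries, 12.5, 14.3 and 11.4 in mutant untreated libraries, 77, 94.3 and 79.7 in wild type ABA libraries and 11, 8.56 and 10.03 in wild type untreated libraries. The 4 groups did not overlap, with the mutant above wild type in untreated libraries and below it in ABA libraries. NCED3, an early enzyme of drought-induced ABA synthesis, had -0.43 ± 0.50 and was not called (adjusted p = 0.771, edgeR). Of the 11 tested synthesis and breakdown genes, 9 were below 0 and the median was -0.43.

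MYB96 encodes a transcription factor of ABA signalling that also drives cuticular wax synthesis. Its levels were 70.04, 73.6 and 55.7 CPM in mutant ABA libraries, 39.7, 28.3 and 22 in mutant untreated libraries, 71.1, 63.2 and 48.7 in wild type ABA libraries and 8.4, 6.83 and 6.19 in wild type untreated libraries. The ABA-treated groups overlapped, and among untreated libraries all 3 of the mutant lay above all 3 of wild type. MYB96 rose by 1.15 ± 0.21 in the mutant and 3.09 ± 0.23 in wild type, and the interaction was -1.94 ± 0.31 (adjusted p = 0.00739, edgeR). Of the 12 tested ABA transcription factors, 10 were below 0 with a median of -0.23, and the other 11 were not called.

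The ABA-induced markers, protective proteins and other standard readouts of the hormone, had 2 calls among 31 tested (6.45%), both higher. Over all genes tested 1.66% were called higher, and the list median was 0.67. KIN1 and KIN2 are neighbouring cold- and ABA-induced genes that are near-identical in sequence, so reads may be split between them. KIN1 had 271, 213 and 306 CPM in mutant ABA libraries, 5.6, 6.53 and 3.55 in mutant untreated libraries, 461, 336 and 281 in wild type ABA libraries and 72.7, 73.9 and 26.9 in wild type untreated libraries. Both untreated groups were low, with the untreated mutant below untreated wild type, and the ABA-treated groups overlapped. KIN1 rose by 5.66 ± 0.41 in the mutant and 2.63 ± 0.35 in wild type, and the interaction was 3.02 ± 0.49 (adjusted p = 0.00874, edgeR). KIN2 had 2.09 ± 0.36 (adjusted p = 0.0111, edgeR), a call that was lost without mutant untreated replicate 2.

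The most used ABA markers were not called. RD29A had an ABA response of 4.4 ± 0.33 in the mutant and 4.54 ± 0.33 in wild type and an interaction of -0.14 ± 0.41 (adjusted p = 0.921, edgeR). RAB18, a dehydrin, had an interaction of 2.16 ± 1.01 (adjusted p = 0.415, edgeR), with 181, 80.1 and 104 CPM in mutant ABA libraries, 0.791, 1.43 and 0.888 in mutant untreated libraries, 560, 311 and 149 in wild type ABA libraries and 29.9, 4.25 and 5.17 in wild type untreated libraries. RD29B had 1.19 ± 1.53 (adjusted p = 0.799, edgeR) and varied widely among untreated libraries of both genotypes, from 0.267 to 4.39 CPM in the mutant and from 0.123 to 17.38 CPM in wild type. The standard error of the RAB18 and RD29B interactions was above 1 on the log2 scale. For RAB18, RD29B and HAI1, wild type untreated replicate 1 lay far above replicates 2 and 3 and raised the mean of that group. RD29B had 17.38 CPM in it, against 0.123 and 0.3, and HAI1 5.19, against 1.29 and 1.14.

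**Figure D4:**
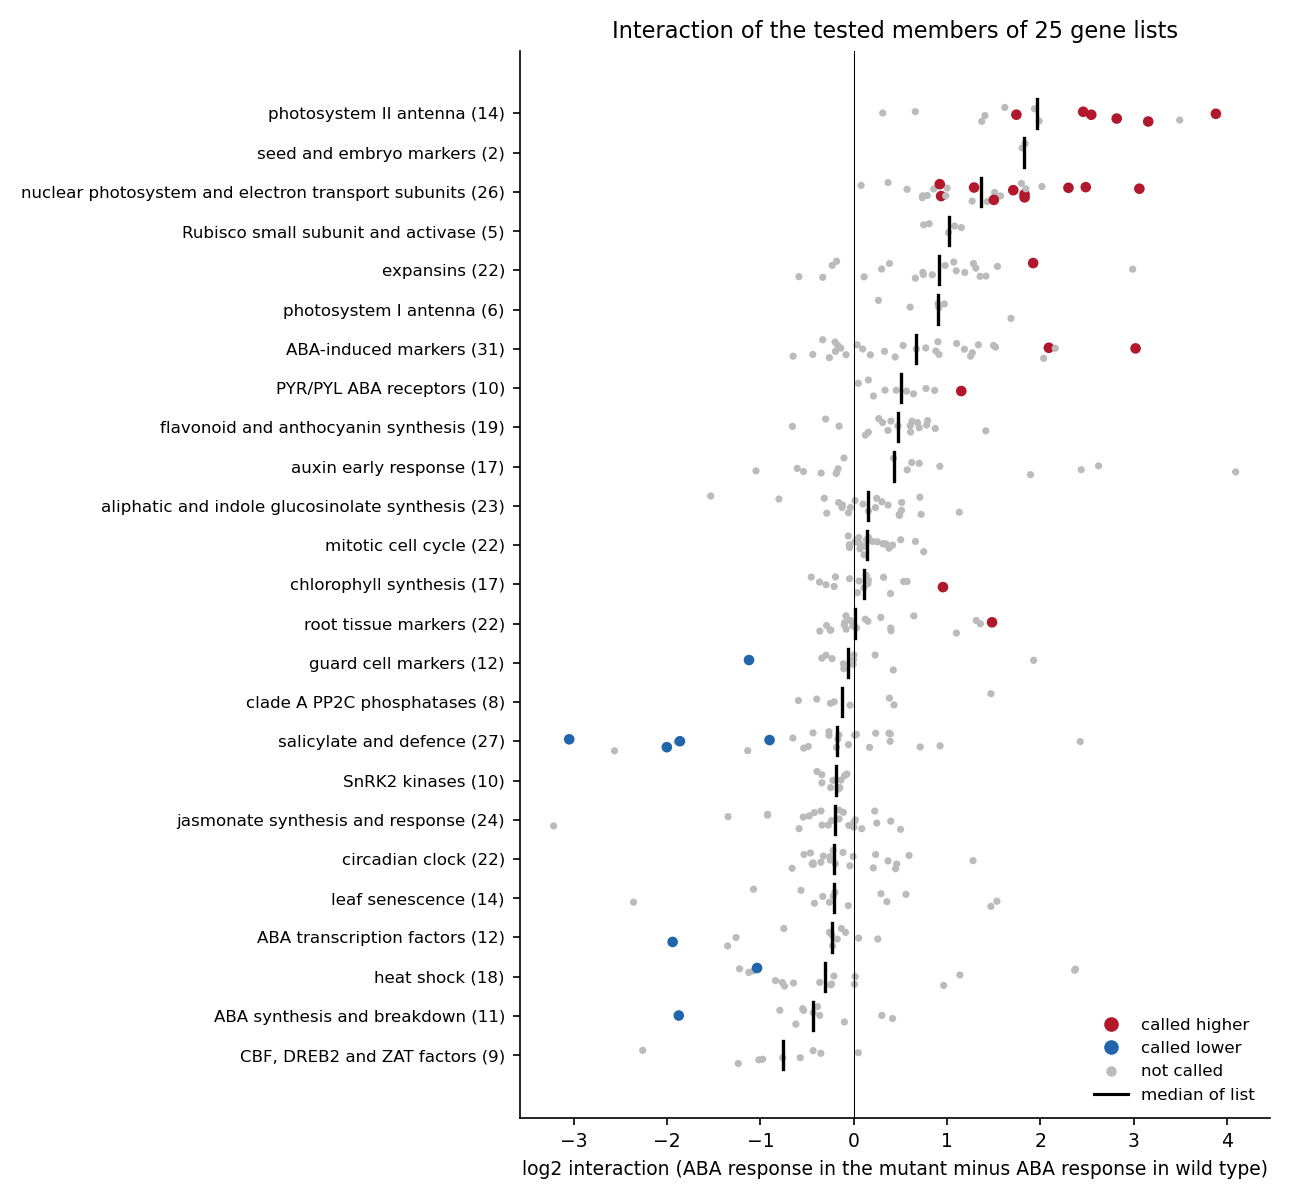
Interaction (horizontal axis, log2) of the tested members of 25 gene lists, in order of the list median, with 1 point a gene and a bar at each median. Red points, called higher, are most numerous in the photosystem II antenna (6) and subunit (10) lists, and blue points, called lower, in the salicylate and defence list (4).

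The salicylate and defence list held more of the calls in the lower direction than any of the other 24 lists. Of 27 tested salicylate and defence genes, 4 were called lower and 0 higher, against 0.141% of all genes tested called lower, 17 were below 0 and the median was -0.18. The count was 2 with the GC and length trend removed and without any 1 of the mutant libraries, wild type ABA replicates 1 or 2 or wild type untreated replicate 1, and 1 without wild type untreated replicate 2. PBS3 acts in the synthesis of salicylic acid, the signal of immunity to biotrophic pathogens. It had 6.96, 6.05 and 7.61 CPM in mutant ABA libraries, 23.9, 19 and 24.7 in mutant untreated libraries, 11.6, 8.08 and 9.98 in wild type ABA libraries and 5.6, 8.06 and 13 in wild type untreated libraries. The untreated mutant was the high group, and below it untreated wild type spanned the range of both ABA-treated groups. PBS3 fell in the mutant, with a log2 response of -1.71 ± 0.26 (adjusted p = 0.000206), and had a response of 0.15 ± 0.25 in wild type (adjusted p = 0.636), for an interaction of -1.86 ± 0.36 (adjusted p = 0.0202, edgeR). The call was lost without wild type untreated replicate 2 and with the GC and length trend removed (adjusted p = 0.067).

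ALD1 encodes the aminotransferase that starts the synthesis of pipecolic acid, a signal of systemic immunity. It was expressed at a low level, with 0.501, 0.712 and 0.798 CPM in mutant ABA libraries, 2.62, 1.86 and 1.38 in mutant untreated libraries, 1.08, 1.43 and 0.817 in wild type ABA libraries and 0.408, 0.308 and 0.421 in wild type untreated libraries. Untreated wild type was the lowest group, and the untreated mutant overlapped ABA-treated wild type. ALD1 changed by -1.52 with ABA in the mutant and by 1.53 in wild type, opposite directions that both passed the test (adjusted p = 0.00252 and 0.00443). Its interaction was -3.05 ± 0.50 (adjusted p = 0.00874, edgeR), kept in all 21 alternative fits.

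WRKY18 and WRKY40 are related transcription factors that modulate both defence and ABA responses. WRKY18 had 28, 30.5 and 32.7 CPM in mutant ABA libraries, 92.3, 93.8 and 95.2 in mutant untreated libraries, 18.3, 16.6 and 12.3 in wild type ABA libraries and 25.7, 24.3 and 27.9 in wild type untreated libraries. It fell with ABA in both genotypes, with log2 responses of -1.63 in the mutant and -0.72 in wild type, and the mutant lay above wild type in both conditions. The interaction was -0.90 ± 0.20 (adjusted p = 0.0378, edgeR). WRKY40 had 13.8, 9.97 and 13.7 CPM in mutant ABA libraries, 22.5, 29.8 and 24.5 in mutant untreated libraries, 7.34, 5.26 and 8.04 in wild type ABA libraries and 2.16, 2.34 and 6.07 in wild type untreated libraries. Its interaction was -2.0 ± 0.45 (adjusted p = 0.04, edgeR). Among the fits that left out 1 library, the call of WRKY18 was kept only without wild type ABA replicate 3 or wild type untreated replicate 3 and was lost with the GC and length trend removed (adjusted p = 0.342). That of WRKY40 was kept only without wild type untreated replicate 3.

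Outside the lists, the called genes with the most negative interactions were of mixed or unknown function. AT5G45630, annotated as a senescence regulator of the DUF584 family, had 81.1, 66.6 and 41.4 CPM in mutant ABA libraries, 6.57, 7.68 and 4.58 in mutant untreated libraries, 38.5, 28.1 and 29.3 in wild type ABA libraries and 0.466, 0.554 and 0.421 in wild type untreated libraries. It rose with ABA in both genotypes, by 3.33 ± 0.26 in the mutant and 6.04 ± 0.35 in wild type. The 4 groups did not overlap, and untreated mutant libraries lay above untreated wild type libraries by 3.69 on the log2 scale. The interaction was -2.71 ± 0.44 (adjusted p = 0.00874, edgeR).

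NUDT21, a nudix hydrolase homologue, had 40.4, 31.8 and 35 CPM in mutant ABA libraries, 97.8, 64.1 and 69.2 in mutant untreated libraries, 26.6, 20.6 and 17.81 in wild type ABA libraries and 8.98, 7.76 and 10.8 in wild type untreated libraries. It fell in the mutant (-1.11) and rose in wild type (1.24), with an interaction of -2.35 ± 0.28 (adjusted p = 0.00191, edgeR). SHM7, a serine hydroxymethyltransferase of 1-carbon metabolism, moved in the same directions, with 91.8, 87.9 and 98.4 CPM in mutant ABA libraries, 194, 213 and 175 in mutant untreated libraries, 95.1, 74.6 and 64.3 in wild type ABA libraries and 57.5, 44.2 and 59.7 in wild type untreated libraries. Its interaction was -1.6 ± 0.24 (adjusted p = 0.00437, edgeR). In both genes the untreated mutant was the highest group and untreated wild type the lowest, and both calls were kept in all 21 alternative fits.

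AT3G24750, an uncharacterized protein, differed from these in that the ABA-treated groups were apart. It had 9.62, 9.82 and 8.78 CPM in mutant ABA libraries, 4.81, 3.77 and 3.15 in mutant untreated libraries, 27.2, 24.9 and 25.9 in wild type ABA libraries and 2.56, 3.94 and 3.48 in wild type untreated libraries. The untreated groups overlapped, and ABA-treated wild type was the high group. It rose by 1.27 ± 0.18 in the mutant and 2.97 ± 0.19 in wild type, and the interaction was -1.69 ± 0.26 (adjusted p = 0.0055, edgeR), kept in all 21 alternative fits.

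The other 4 genes named in this direction were AT2G18690, AR781, WAKL2 and AT4G12735, with interactions of -1.59 ± 0.29, -1.66 ± 0.35, -1.85 ± 0.39 and -3.04 ± 0.70 and adjusted p of 0.0152, 0.0324, 0.0297 and 0.0475 in edgeR. WAKL2 encodes a wall-associated kinase-like protein, AR781 a protein of the DUF1645 family, and the other 2 are uncharacterized. The call of AT2G18690 was lost without mutant untreated replicate 2. That of WAKL2 was kept without mutant ABA replicate 1, mutant untreated replicate 3, wild type ABA replicate 3 or wild type untreated replicate 3, that of AR781 without mutant untreated replicate 1, wild type ABA replicate 3 or wild type untreated replicate 3, and that of AT4G12735 without mutant untreated replicate 3 or wild type untreated replicate 3, and each was lost without any other single library. AR781 and AT4G12735 were also lost with the GC and length trend removed (adjusted p = 0.068 and 0.0588).

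Further genes called lower were noticed after their values were seen. AT5G41740, a TIR-NBS-LRR disease resistance gene, had 57.4, 44.5 and 42.6 CPM in mutant ABA libraries, 177, 146 and 132 in mutant untreated libraries, 15, 14.6 and 15.5 in wild type ABA libraries and 18.1, 12.3 and 21.4 in wild type untreated libraries. The mutant lay above wild type in both conditions, and the interaction was -1.45 ± 0.27 (adjusted p = 0.0166, edgeR), a call lost without wild type ABA replicate 2. ACS6, which makes the precursor of ethylene, had -1.02 ± 0.17 (adjusted p = 0.00955, edgeR). The most negative fitted value of all belonged to ABO3, a WRKY factor named for an ABA-oversensitive mutant, which had 1 count over the 3 mutant ABA libraries, so no fold is given for it. Its call was lost without mutant ABA replicates 1 or 3, mutant untreated replicates 1 or 2 or wild type untreated replicates 1 or 2.

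**Figure D5:**
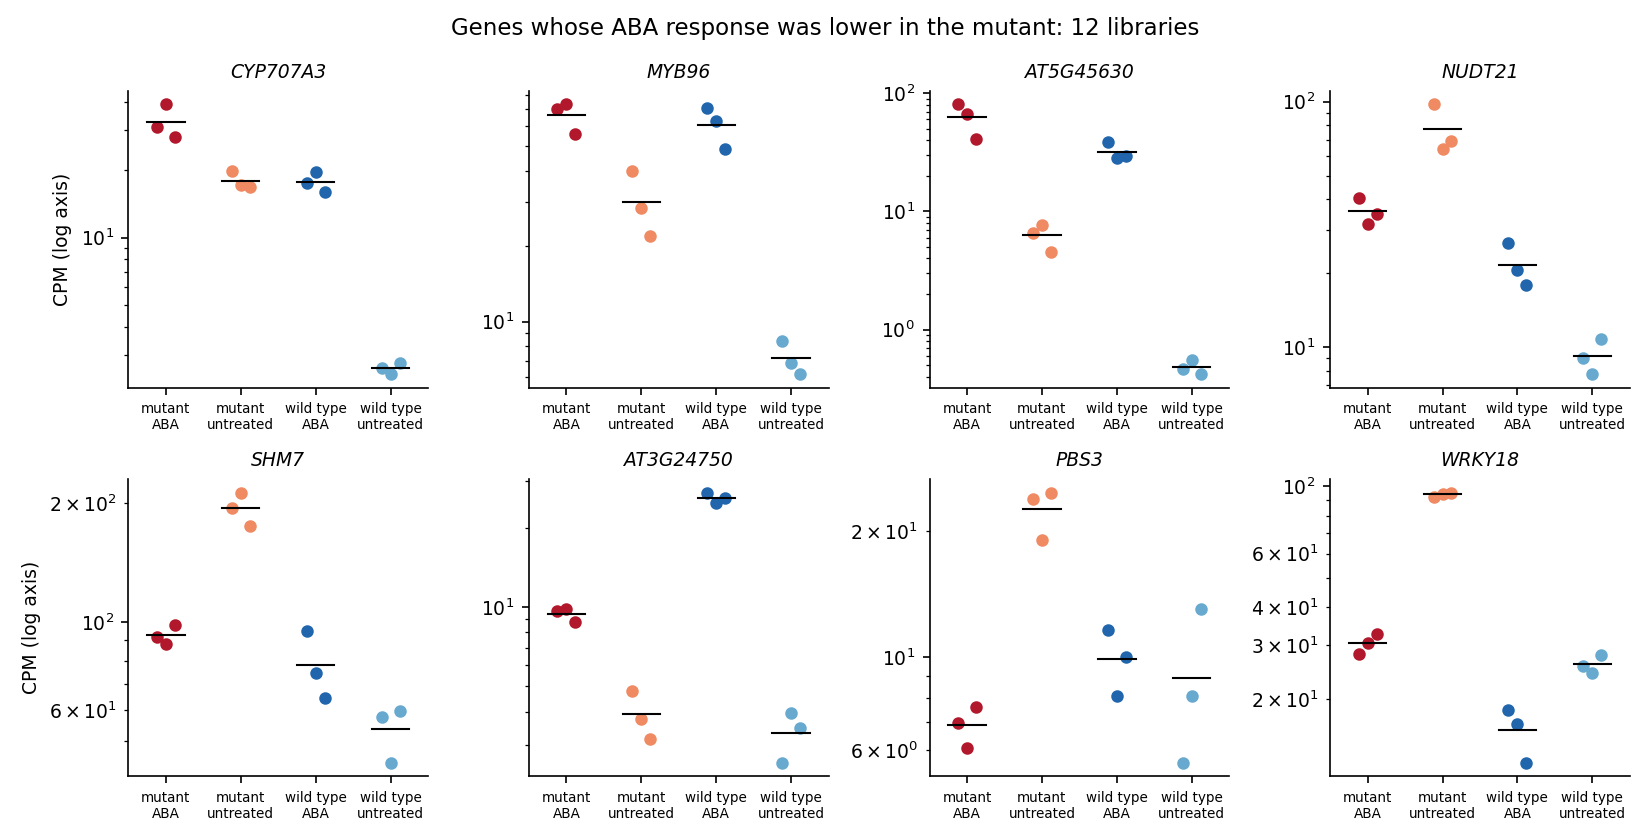
Levels (CPM, log axis) of 8 genes called lower in the interaction in each of the 12 libraries, with 1 point a library and a line at the mean of each group of 3. Untreated wild type is the lowest group in CYP707A3, MYB96, AT5G45630 and NUDT21, the untreated mutant is the high group in NUDT21, SHM7, PBS3 and WRKY18, and ABA-treated wild type is the high group in AT3G24750.

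Among the genes called higher, the largest interactions outside the photosynthesis and ABA lists included a pair of ribosomal RNA genes. AT2G01020 and AT3G41979 are annotated as rRNA with the same exonic length, 164 bases, and reads cannot be assigned to either with certainty. AT2G01020 had 3.01, 2.19 and 2.39 CPM in mutant ABA libraries, 2.07, 1.91 and 3.38 in mutant untreated libraries, 5.32, 2.49 and 1.59 in wild type ABA libraries and 41.7, 53 and 42.2 in wild type untreated libraries. Their summed counts, as CPM without TMM factors, were 5.33 to 6.49 in mutant ABA libraries, 4.15 to 7.21 in mutant untreated libraries, 3.48 to 10.8 in wild type ABA libraries and 74.7 to 91.4 in wild type untreated libraries. The interactions were 3.91 ± 0.51 and 3.8 ± 0.49 (adjusted p = 0.00284 and 0.00284, edgeR), and 2.46 and 2.36 with the GC and length trend removed. In libraries selected for messenger RNA, rRNA is a remnant, so untreated wild type libraries differed from the other 9 in this remnant as well, and its part in the other results was not tested.

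Protein-coding genes in this group were AT3G63540, a thylakoid lumen protein of the PsbP family, AT5G11550, an ARM repeat protein, AT1G19960, annotated as a transcription factor, AT3G59840, annotated as an allyl alcohol dehydrogenase-like protein, and the uncharacterized AT2G43540 and AT3G63390. AT3G63540 had 5.01, 3.81 and 6.44 CPM in mutant ABA libraries, 4.26, 6.49 and 10.1 in mutant untreated libraries, 10.8, 7.03 and 5.98 in wild type ABA libraries and 82, 107 and 87.3 in wild type untreated libraries, and an interaction of 3.07 ± 0.42 (adjusted p = 0.00358, edgeR). AT1G19960 had 7.92, 6.51 and 12.3 CPM in mutant ABA libraries, 7.79, 5.34 and 6.62 in mutant untreated libraries, 6.11, 6.26 and 9.94 in wild type ABA libraries and 43.5, 81.8 and 41.8 in wild type untreated libraries, and an interaction of 3.34 ± 0.44 (adjusted p = 0.00313, edgeR). In both genes the 3 untreated wild type libraries lay above all 9 others, which overlapped.

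AT5G11550 had an interaction of 3.21 ± 0.31, AT2G43540 of 3.34 ± 0.51, AT3G63390 of 3.08 ± 0.46 and AT3G59840 of 2.99 ± 0.52, with adjusted p of 0.000975, 0.00581, 0.00455 and 0.0114 in edgeR. For AT5G11550 the responses were 0.01 in the mutant and -3.2 in wild type. The call of AT3G63390 was lost with the GC and length trend removed (adjusted p = 0.111), and the other 3 were kept in all 21 alternative fits, AT5G11550 with 2.13 once that trend was removed.

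Several protein families were counted by their annotated product after the called genes had been seen, so their counts describe the calls and support nothing beyond them. They stand beside 1.66% of all genes tested called higher. Of 6 tested tonoplast aquaporins, water channels of the vacuole membrane, 4 were called higher, with a family median of 2.12. GAMMA-TIP had 40.6, 47.3 and 48.9 CPM in mutant ABA libraries, 38.1, 38.1 and 50.6 in mutant untreated libraries, 52.6, 42.4 and 55.1 in wild type ABA libraries and 286, 354 and 267 in wild type untreated libraries. Its ABA response was 0.11 in the mutant and -2.59 in wild type, and its interaction was 2.7 ± 0.24 (adjusted p = 0.000604, edgeR). DELTA-TIP had 2.31 ± 0.28 (adjusted p = 0.00191, edgeR).

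Of 64 tested lipid transfer proteins, small secreted proteins linked to the cuticle and cell wall, 13 were called higher, and of 35 arabinogalactan proteins, glycoproteins of the cell surface, 9 were. LTP2 differed from the photosynthesis genes in its pattern, with 20.19, 19.2 and 23.62 CPM in mutant ABA libraries, 2.74, 4.43 and 3.78 in mutant untreated libraries, 31.2, 19.2 and 19.96 in wild type ABA libraries and 27.1, 44 and 19.5 in wild type untreated libraries. The untreated mutant was the low group and the other 3 groups overlapped. LTP2 rose with ABA in the mutant by 2.51 ± 0.30 (adjusted p = 3.97e-05) and had -0.36 ± 0.27 in wild type (adjusted p = 0.277), for an interaction of 2.88 ± 0.41 (adjusted p = 0.0039, edgeR). AGP9 had 1.85 ± 0.23 (adjusted p = 0.00229, edgeR), with untreated wild type as its high group.

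Of 12 tested fructose-bisphosphate aldolases, 4 were called higher, among them FBA1 at 2.46 ± 0.44 and FBA2 at 2.4 ± 0.41 (adjusted p = 0.0127 and 0.00995, edgeR), chloroplast enzymes of the Calvin cycle. The call of FBA1 was lost without mutant untreated replicate 2. FBA1 fell with ABA in both genotypes, with log2 responses of -1.36 in the mutant and -3.81 in wild type. Of 43 core histone genes, 8 were called higher, with 1.83 for HTA2 and 1.28 for H2AXA, and 5 of 12 serine/arginine-rich splicing factors were, with 1.31 for RSZ22 and 1.07 for SR45. Among the fits that left out 1 library, H2AXA was kept only without wild type untreated replicate 3, and RSZ22 without mutant ABA replicate 2, mutant untreated replicate 3 or wild type untreated replicate 3. HTA2 was lost without mutant untreated replicates 1 or 2 or wild type ABA replicate 2, and SR45 without mutant untreated replicate 2 or wild type ABA replicate 2. H2AXA was also lost under RLE and upper quartile scaling and in limma-voom, and HTA2 and RSZ22 with the GC and length trend removed (adjusted p = 0.0501 and 0.0717). Of 345 ribosomal protein genes, 11 (3.19%) were called higher, against 1.66% of all genes tested. The family median was 0.44, against -0.01 over all genes tested. That comparison was not matched for length or GC content, and the median of all genes was 0.25 in the shortest 10% and 0.36 in the 10% with the highest GC content.

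The expansin and heat shock lists gave 1 call each. Of 22 tested expansins, which loosen cell walls, 18 were above 0 with a median of 0.91. EXPA3 was called (4.55% of the list, against 1.66% of all genes tested called higher). EXPA3 had 1.9, 2.44 and 2.29 CPM in mutant ABA libraries, 4.62, 5.2 and 5.82 in mutant untreated libraries, 1.97, 2.39 and 2.58 in wild type ABA libraries and 21.5, 25.1 and 15.9 in wild type untreated libraries. It fell with ABA in both genotypes, with log2 responses of -1.24 in the mutant and -3.16 in wild type, and the interaction was 1.92 ± 0.29 (adjusted p = 0.00519, edgeR). DESeq2 called 5 expansins higher. HSFB2A, a heat shock factor of the repressor class, was the only call of 18 heat shock genes, against 0.141% of all genes tested called lower. HSFB2A had -1.04 ± 0.21 (adjusted p = 0.0286, edgeR). It was kept without mutant untreated replicates 1 or 3, wild type ABA replicate 3 or wild type untreated replicate 3, and was lost without any other single library and with the GC and length trend removed (adjusted p = 0.0777).

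Of the 25 lists, 13 had no called member among 181 tested genes, against 1.80% of all genes tested called. An unadjusted p under 0.05 was reached by 22 of the 181 in the higher direction and 6 in the lower. Over all 21322 genes tested these counts were 1983 and 626. DESeq2 called 3 of the 181 higher and 2 lower, and limma-voom called 1 higher and 0 lower. Beside the lists above these were leaf senescence, jasmonate synthesis and response, the CBF, DREB2 and ZAT factors, the circadian clock, mitotic cell cycle, auxin early response, glucosinolate synthesis, flavonoid synthesis and seed markers. ORA47, a jasmonate-linked factor, had -3.22 ± 0.90 (adjusted p = 0.101, edgeR) with 1.95, 0.763 and 0.958 CPM in mutant ABA libraries, 8.03, 3.19 and 3.95 in mutant untreated libraries, 0.444, 0.382 and 0.172 in wild type ABA libraries and 0.117, 0.0616 and 0.24 in wild type untreated libraries, and was called by DESeq2 (adjusted p = 0.0124). The CBF, DREB2 and ZAT factors had the lowest list median, -0.76, with 8 of 9 below 0.

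Markers of particular tissues were measured beside these results. The summed level of 22 root markers was 160.7 to 204.3 CPM in mutant ABA libraries, 207.4 to 256.5 in mutant untreated libraries, 177.2 to 197.3 in wild type ABA libraries and 253.1 to 314.9 in wild type untreated libraries, and none was at 0. SHR, which patterns the root but is also active in leaves, was the only root marker called, at 1.48 ± 0.26 (adjusted p = 0.0112, edgeR). It lost its call without mutant untreated replicate 2. This is 4.55% of the 22, against 1.66% of all genes tested called higher. Of the 22 root markers, 11 were above 0 and 11 below, with a median interaction of 0.01. The summed level of 12 guard cell markers was 2032 to 2545, 2126 to 2350, 2598 to 2783 and 2108 to 2628 CPM in the same order of groups. The highest group means of KAT1, SLAC1 and EPF1 were 38.92, 11.37 and 1.79 CPM, so other members carried this sum. Without TMM factors the untreated mutant had 229.6 to 256.8 CPM of root markers and untreated wild type 216.9 to 287.2. Of guard cell markers the untreated mutant then had 2349 to 2378 CPM and untreated wild type 1870 to 2396. For both lists, how these 2 groups compare depends on the scaling. KAT1, a potassium channel of guard cells, was called lower at -1.12 ± 0.25 (adjusted p = 0.0442, edgeR), with 26.8, 32.8 and 20.4 CPM in mutant ABA libraries, 44.5, 34 and 30.6 in mutant untreated libraries, 41.3, 36.9 and 38.6 in wild type ABA libraries and 22.8, 22.6 and 27.5 in wild type untreated libraries. The groups overlapped in a chain, with ABA-treated wild type the highest on average. The call of KAT1 was kept without mutant ABA replicate 2, mutant untreated replicate 3 or wild type untreated replicate 3, and was lost without any other single library. No other guard cell marker was called, against 0.141% of all genes tested called lower. Of the 12, 4 were above 0 and 8 below, with a median of -0.06. EPF1 of the same list had 1.93 ± 0.50 and was not called (adjusted p = 0.0759, edgeR). Of 14 seed and embryo markers, 7 were at 0 in mutant ABA, 9 in mutant untreated, 8 in wild type ABA and 7 in wild type untreated libraries, the seed storage genes CRU2 and CRU3 and the regulator LEC1 in all 4 groups. In bulk seedlings, fewer cells of a type and less RNA per cell cannot be told apart.

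The 250 bases upstream of each called gene were searched on both strands for 7 short motifs. The ABA-responsive core ACGTG was found in 25.2% of 353 genes called higher and 33.3% of 30 called lower, against 24.1% of 21041 tested genes with a sequence. TTGACT, which holds the W-box core bound by WRKY factors, was found in 15.6% of genes called higher and in 10 of the 30 called lower (33.3%), against 19%. TATCCA, a motif first described in sugar-regulated amylase promoters of rice, was found in 12.7% and in 9 of 30 (30%), against 14.1%. The longer G-box CACGTG, which contains ACGTG, was found in 6.52% and 10%, against 7.37%. GATAAG, a motif named I-box in promoters of light-regulated genes, was found in 12.7% and 10%, against 12.3%. AAAATATCT, the evening element of clock-regulated genes, was found in 1.98% and 6.67%, against 2.44%, and TTGACC in 12.2% and 20%, against 12.3%. These shares are descriptions of letters in a window, and the called-lower set of 30 is small.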

How the data were processed

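Messenger RNA of 12 libraries was measured by RNA sequencing. The authors deposited raw counts per gene for all 12. Per the submitters' processing notes, the tools were Trim Galore 0.3.3 and edgeR (no version) and the build TAIR10. No source used here gives the aligner, the counting tool or the use of strand. Names, exonic length, GC content and upstream sequence came from the RefSeq annotation of TAIR10.1, which matched 28932 of 33610 IDs exactly and gave length and GC content for 98.7% of genes tested, so no positions or sequences are given.

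Counts were tested in R 4.3.3 with edgeR 4.0.16, using filterByExpr by group (21322 genes, 99.96% of counts), TMM factors and a quasi-likelihood model with 1 mean for each group (common biological coefficient of variation 0.185). The standard error is the log2 value divided by the square root of F. Levels are TMM-normalised CPM. A gene was called at a Benjamini-Hochberg adjusted p under 0.05, and "n = 3" holds for every group. Replicates are biological, per the series text.

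The comparison, the 25 lists (435 genes) and the rules were chosen with earlier results of these data known. The rule for named genes took the 12 most positive and 12 most negative called nuclear genes with at least 5 CPM in a group, at least 10 counts in every group and no overlap of the 9 ABA-minus-untreated differences between genotypes (log2 of CPM + 0.5). All 384 called genes met the last condition, against 7.59% of genes tested. From each list, the 4 or fewer genes with the smallest adjusted p were selected too, as were PYL4, ABI1, HAI1, NCED3, CYP707A3, RAB18, RD29A and RD29B. Of all genes so selected, 79 were not called, and many of these are not described here. Examples are SAUR21 at 4.09 ± 1.12 (adjusted p = 0.0951, edgeR) and SEN1 at -2.36 ± 1.36 (adjusted p = 0.534, edgeR). LHCB1.3, LHCB2.1 and other list members beyond 4 were named after their values were seen, as were the members of protein families. Alternatives were other scalings, filters, DESeq2 1.42.0, limma-voom (limma 3.58.1), a replicate block, offsets for GC content and length, and each library left out. The fit was tested on simulated data, in which 4.85% of calls were false. Simulated counts were drawn independently from the fitted spread of each gene, without shared deviations of libraries, so this share need not hold for the real calls. The promoter window was 250 bases.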

Additional observations from a re-analysis of the deposited data

Results flagged for a closer look

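The response to ABA differed between the mutant and wild type, by the test of the interaction itself, in 354 genes in the higher direction and 30 in the lower. Among the genes that the naming rule selected, the log2 interactions past that test in the higher direction were 3.91 for AT2G01020, 3.88 for LHCB1.5, 3.8 for AT3G41979, 3.34 for AT2G43540, 3.34 for AT1G19960, 3.21 for AT5G11550, 3.16 for LHCB6, 3.08 for AT3G63390, 3.07 for AT3G63540, 3.06 for PSBTN, 3.02 for KIN1 and 2.99 for AT3G59840. List members with smaller values were LHCB1.2 (2.82), LHCB4.1 (2.55), PSAL (2.49), KIN2 (2.09), EXPA3 (1.92), PSBW (1.83), PSBY (1.71), SHR (1.48), PYR1 (1.15) and CHLM (0.96).

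In the lower direction the genes of that rule past the test were ALD1 (-3.05), AT4G12735 (-3.04), AT5G45630 (-2.71), NUDT21 (-2.35), WRKY40 (-2.0), MYB96 (-1.94), CYP707A3 (-1.88), PBS3 (-1.86), WAKL2 (-1.85), AT3G24750 (-1.69), AR781 (-1.66), SHM7 (-1.6), AT2G18690 (-1.59), KAT1 (-1.12), HSFB2A (-1.04) and WRKY18 (-0.9). Groups of 3 were too small for a test of single outlying libraries.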

How the results depend on the processing

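The counts of called genes were within 1.5 times the reported 354 higher and 30 lower under RLE and upper quartile scaling, both other filters, limma-voom and the replicate block alone. DESeq2 called 693 higher and 89 lower, GC and length offsets gave 228 higher, and the replicate block with those offsets gave 185 higher. Without 1 library, 117 to 440 genes were called higher and 12 to 45 lower, with fewer samples in each such fit. The photosystem II antenna list had 3 to 10 calls and the photosystem subunit list 4 to 15 without 1 library, and the subunit list had 16 in DESeq2 and 5 with the replicate block and offsets together. Of all called genes, 87 of the 354 and 10 of the 30 were kept in all 21 alternatives, and of the 38 that the naming rule selected, 23 were. Those 38 kept their sign in each of the 21. The sign of 3 other genes called higher turned with GC and length offsets, to -0.01 for AT2G01021, -0.40 for AT4G00030 and -0.05 for AT5G57370. Correlations between same-numbered libraries of different groups resembled those between other-numbered ones. They ran from -0.44 to 0.599 (5 of 18 above 0.1, median 0.01), against -0.617 to 0.634 (14 of 36 above 0.1, median 0.003). The numbers were therefore not taken as pairs, though some libraries of different groups did deviate together. The replicate block called 262 genes higher and 26 lower, 247 and 21 of them among those reported. In the simulated data a fold of 2 was mostly below what 3 libraries a group could show. The cause of these shifts was not tested.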
